A study of Homo sapiens with 372 samples.

Results

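The nuclear genes for complexes II, III, IV and V of the mitochondrial respiratory chain were followed gene by gene in single A2780 cells exposed to paclitaxel, celecoxib or both. Genes were taken by symbol, as those that read SDHA to SDHD or begin with UQCR, COX4 to COX8 or ATP5. The rule found 42 of the 9664 genes listed, and it used no measured value. They are 4 genes of complex II, 8 of complex III, 12 of complex IV, 15 of complex V, the related factors ATP5S and ATP5SL, and UQCRHL, a gene that arose as a retrocopy of UQCRH. All 42 were detected, with an E-value above 0, in more than 30% of cells in 1 condition or more, as were 9655 of the 9664 genes. The symbols are the older ones of the deposited table, so that subunits under other names (CYC1, NDUFA4, USMG5, C14orf2 and the inhibitor ATPIF1) fell outside the rule, and genes encoded in mitochondrial DNA were not analysed here.

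The A2780 line derives from a human ovarian cancer, the drug paclitaxel binds and stabilizes microtubules, and the anti-inflammatory drug celecoxib blocks cyclooxygenase-2. The 6 conditions were control cells without drug, 5 nM paclitaxel for 16 h or 48 h, 75 µM celecoxib for 2 h or 16 h, and a combination of 5 nM paclitaxel with 75 µM celecoxib for 16 h. Cells were captured on the Fluidigm C1 system, which isolates single cells on a chip, and their polyA RNA was sequenced by Smart-seq2 with 3 spike-in RNAs in each well. The table holds 46 control cells, 56 and 53 cells with paclitaxel (16 h, 48 h), 63 and 61 cells with celecoxib (2 h, 16 h), and 59 cells with the combination. The cell titles share 1 identifier over all conditions. The library names give each condition 1 code of its own, read here as 1 C1 run. Cells of 1 run are not replicates of a treatment, so every condition counted as 1 sample, every SD below is a spread over cells, and no p-value was computed. All treatments were compared with the same control cells, and the condition cannot be told apart from its C1 run.

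The deposited E-value is log2(N/10 + 1), where N is the TPM of a gene scaled to the highest spike-in RNA of the cell, so it follows the amount of RNA per cell. On a second scale, called same-total here, every cell's linear values were set to a common total, the median of the control cells, before the E-value was taken again. The median total of a cell was lower than in control by 0.99 and 0.64 log2 units with paclitaxel (16 h, 48 h) and by 0.76 and 1.52 with celecoxib (2 h, 16 h), and it was 0.49 higher with the combination. The median number of genes detected per cell lay between 6125 and 6630 over the conditions, and 0 library index numbers were shared by 2 retained cells. Read numbers per cell were not known. Of 11 marker genes of ovarian carcinoma lines, 2 were among the genes listed, VIM in 74.0% and KRT18 in 28.4% of the cells. PAX8, EPCAM and the other 7 were not listed, so most of this check could not be made. Of 8 markers of leukocytes, fibroblasts and endothelium only COL1A2 was listed, with a mean E-value between 0.20 and 0.96.

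Complex II is succinate dehydrogenase, which ties the tricarboxylic acid cycle to the respiratory chain by passing electrons from succinate to ubiquinone. Complex III passes electrons from ubiquinol to cytochrome c, and complex IV passes them from cytochrome c to oxygen, both while moving protons across the inner membrane. Complex V, ATP synthase, uses the proton gradient to make ATP. Complex II is encoded by nuclear genes alone, whereas the other complexes also hold subunits made inside the mitochondrion. Nuclear respiratory factor 1 (NRF1), the ETS factor GABPA and YY1 are known regulators of many of these genes.

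Promoter windows from RefSeq (GRCh38.p14, the hg38 assembly), from 250 bases before to 50 bases after the gene start, were found for 33 of the 42 genes. They were searched on both strands for GCGCANGCG (the core of the NRF1 site), CCGGAAG (ETS) and AAGATGG (YY1). The NRF1 letters were in 12 of the 33 windows, or 36.4%, against 8.05% of the 27305 promoters of the table. ETS letters were in 14 windows (42.4%, against 10.7%) and YY1 letters in 9 (27.3%, against 6.06%). The promoters of the table include those of genes not listed here, and they were not matched to the members by expression or base composition. Shares over the listed genes alone were not computed, so these values do not show that the letters are particular to the members. The 250 bases before the gene start follow for 1 gene of each complex, on the gene's own strand from 5′ to 3′, with matches in capitals. ATP5G1 is shown because its expression stood furthest from control at 16 h of celecoxib, and the other genes because their windows lie almost wholly outside annotated exons.
SDHB (chr1:17054033-17054282, minus strand): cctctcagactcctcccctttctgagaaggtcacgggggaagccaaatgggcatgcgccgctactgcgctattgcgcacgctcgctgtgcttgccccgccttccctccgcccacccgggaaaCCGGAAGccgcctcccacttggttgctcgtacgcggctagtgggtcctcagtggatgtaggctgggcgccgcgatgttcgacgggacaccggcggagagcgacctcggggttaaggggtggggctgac
UQCR11 (chr19:1605463-1605712, minus strand): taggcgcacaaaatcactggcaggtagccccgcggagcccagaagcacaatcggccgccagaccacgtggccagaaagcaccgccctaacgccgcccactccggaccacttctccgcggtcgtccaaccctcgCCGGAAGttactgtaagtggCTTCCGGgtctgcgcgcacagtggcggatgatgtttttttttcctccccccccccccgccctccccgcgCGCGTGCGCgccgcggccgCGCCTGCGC
COX6A1 (chr12:120437863-120438112, plus strand): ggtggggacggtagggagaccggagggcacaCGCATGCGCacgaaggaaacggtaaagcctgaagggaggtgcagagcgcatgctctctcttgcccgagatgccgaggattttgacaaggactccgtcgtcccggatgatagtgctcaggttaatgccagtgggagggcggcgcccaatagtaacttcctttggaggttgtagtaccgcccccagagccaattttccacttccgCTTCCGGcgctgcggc
ATP5G1 (chr17:48892537-48892786, plus strand): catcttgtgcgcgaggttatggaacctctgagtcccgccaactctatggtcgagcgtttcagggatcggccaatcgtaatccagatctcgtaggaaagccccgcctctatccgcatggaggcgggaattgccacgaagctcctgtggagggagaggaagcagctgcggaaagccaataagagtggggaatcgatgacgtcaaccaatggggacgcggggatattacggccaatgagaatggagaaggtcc
The stretch shown for SDHB holds 1 ETS match, and its window also has a YY1 match 11 bases after the gene start, not shown. The UQCR11 window holds 2 NRF1 and 2 ETS matches. COX6A1 has 1 match of each of these kinds, and ATP5G1 has none of the 3. A match is a string of letters and was not tested as a binding site.

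Most members were abundant transcripts, and 31 of the 42 were among the 546 genes with a mean E-value above 5 over all cells. Per length, in ppm of the listed total of a cell, averaged over all 338 cells, the highest was ATP5B, the catalytic beta subunit of ATP synthase, at 3706 ppm. COX7A2 (3253 ppm), COX6A1 (2848 ppm) and COX6C (2577 ppm) of complex IV followed, then COX4I1 (2051 ppm) of complex IV and UQCRQ (2021.5 ppm) of complex III. Complex II was the scarcest, with SDHB at 827 ppm, SDHD at 325.2 ppm, SDHA at 233.5 ppm and SDHC at 61.2 ppm. The lowest values were those of COX6B2, the testis form of subunit 6B, at 0.744 ppm, and UQCRHL at 0.899 ppm. COX6B2 had an E-value above 0 in 31.1% of all cells and UQCRHL in 61.5%, against 85.8% for SDHC and at least 97.3% for each of the other complex subunits. Reads shared by UQCRH and UQCRHL, or by a gene and its pseudogenes, were divided by the authors' quantification and remain uncertain.

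A difference was counted past the limit when the mean E-value differed by over log2 of 1.5, which is 0.58. After 16 h of paclitaxel 25 of the 42 genes were down past the limit and none was up, with a median difference of -0.67. Of all 9655 genes tested 37.3% were down and 0.0932% up, with a median of -0.41. At 48 h of paclitaxel 23 of 42 were down (26.6% of all genes down, 0.922% up), and the median was -0.62 against -0.26 over all genes. These cells carry library index numbers from 2 blocks of 96. The count was 15 with block 4 alone, the block of all control cells, and 33 with block 2 alone. The share of all genes was not computed for single blocks. After 2 h of celecoxib the count was 19 (25.7% of all genes down, 1.12% up), with medians of -0.49 and -0.26.

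The lowest levels were those at 16 h of celecoxib. There 39 of the 42 genes were down and the median difference was -1.57, where 43.9% of all genes were down, 0.383% were up and their median was -0.48. ATP5S, COX6B2 and UQCRHL, the members with differences of -0.49, -0.06 and -0.09, were within the limit. COX6B2 and UQCRHL, with mean E-values of 0.1 and 0.14 over all cells, were too near 0 to fall past it. For 35 of the 42 genes the difference at 16 h of celecoxib was larger than the SD over the control cells. That count was not made over all genes. With the combination the direction was the opposite, as 28 of 42 genes were up and none down past the limit, with a median of 0.72. Of all genes 30.4% were up and 1.76% down, with a median of 0.33. ATP5G1 alone lay below control there, by 0.11 log2 units.

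The members are abundant, and abundant genes passed the limit more often on this scale. The counts were therefore repeated, after seeing the data, over those 546 genes and the 31 members among them. Among them 61.3% of the members and 73.4% of all such genes were down at 16 h of paclitaxel, and 61.3% and 67.0% at 48 h. At 2 h of celecoxib the shares were 48.4% and 52.9%, and at 16 h 100% and 97.4%. The difference between these shares was not tested. At 16 h of celecoxib nearly every gene of either set was down. With the combination 74.2% of these members and 53.7% of the 546 genes were up, with medians of 0.73 and 0.62.

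**Figure D1:**
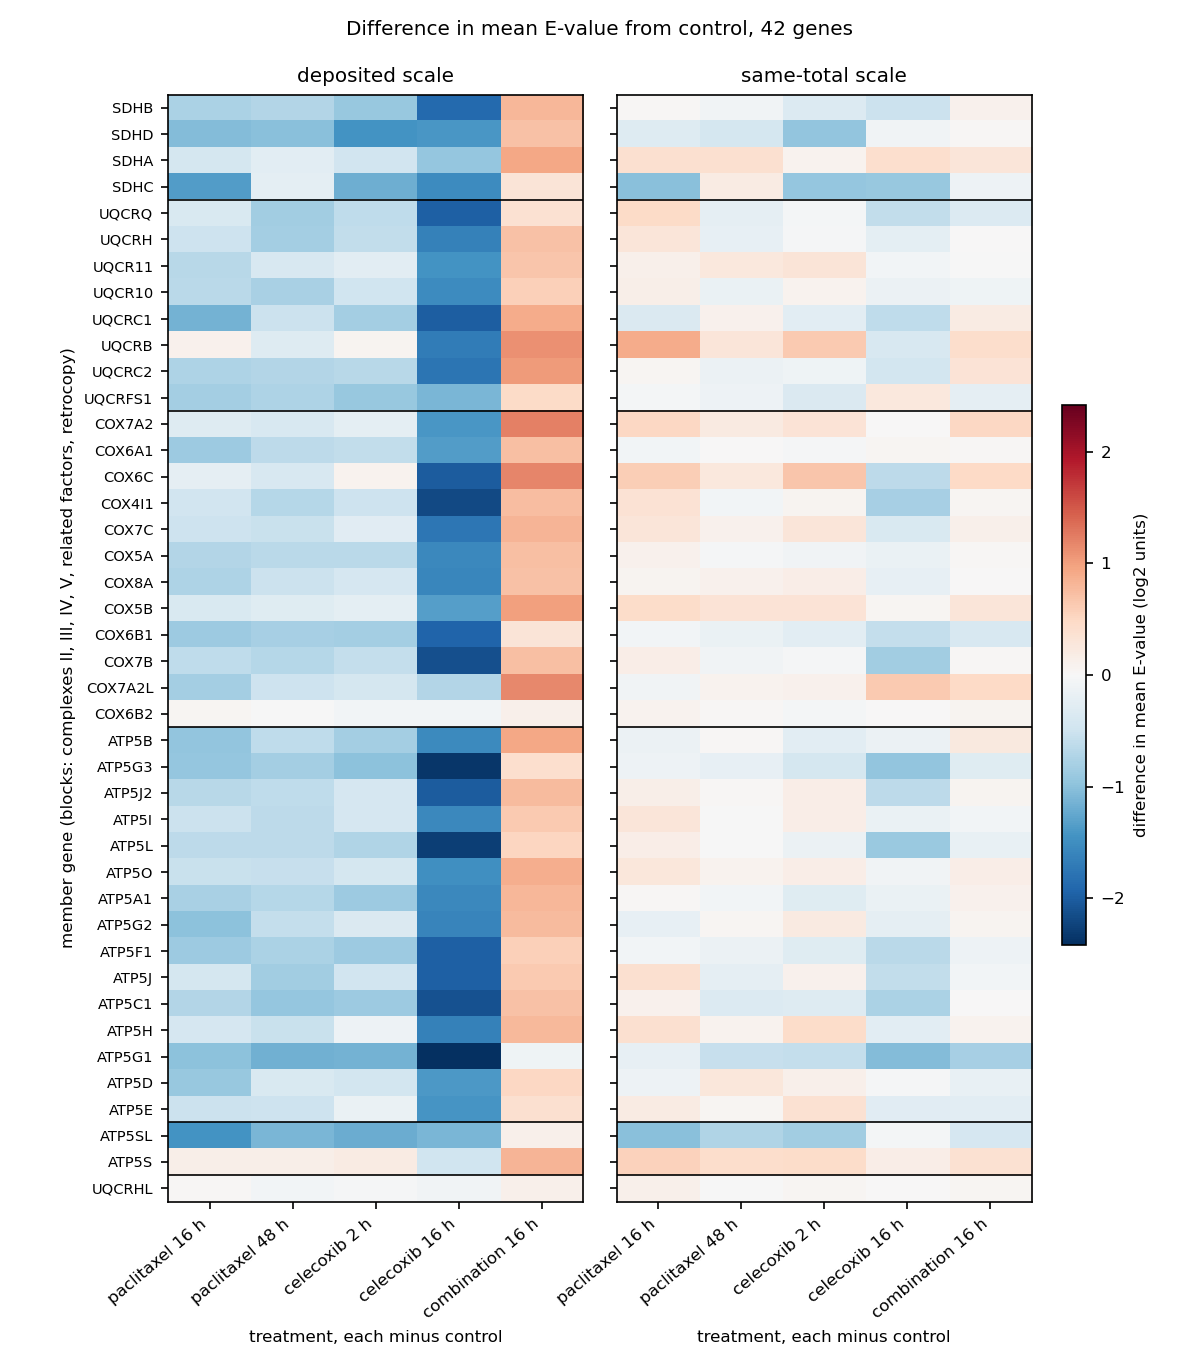
Difference in mean E-value from control (colour, log2 units, blue lower and red higher) for the 42 genes (rows, by complex and then by abundance) after each of 5 treatments (columns), on the deposited scale at left and the same-total scale at right. On the deposited scale the celecoxib 16 h column is the darkest blue, with values down to -2.42, and on the same-total scale most genes are near 0.

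At the same total per cell the broad pattern was gone, and in most treatments few members passed the limit. In the treatments of this paragraph the members' shares down were below those of all genes, and their shares up were at most 4.76%. Paclitaxel for 16 h left 2 genes above and 2 below control past the limit, where 1.89% of all genes were up and 13.2% down, and the members' median was 0.11. After 48 h none was up and 1 was down (4.69% and 8.08% of all genes), and the median difference was 0.00. The 1 gene down was the related factor ATP5SL. After 2 h of celecoxib 2 were up and 3 down (4.18% and 10.9% of all genes), with a median of 0.01. ATP5SL was also among those down at 2 h of celecoxib and at 16 h of paclitaxel. The combination had no gene up and 1 down (7.87% and 7.64% of all genes), with a median of 0.03.

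The exception was 16 h of celecoxib, where 13 genes were down and 1 was up, and the median was -0.23. Of all genes 10.1% were down and 8.87% up there, and their median was 0.02. The 13 were SDHC, UQCRC1, UQCRQ, COX4I1, COX6C, COX7B and 7 genes of complex V, ATP5C1, ATP5F1, ATP5G1, ATP5G3, ATP5J, ATP5J2 and ATP5L. The one gene up was COX7A2L. Among the 546 genes with a mean E-value above 5, 35.5% of the 31 members and 24.0% of all were down, with medians of -0.36 and -0.25. The count was 6 instead of 13 when the log2 ratio of linear means was used.

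**Figure D2:**
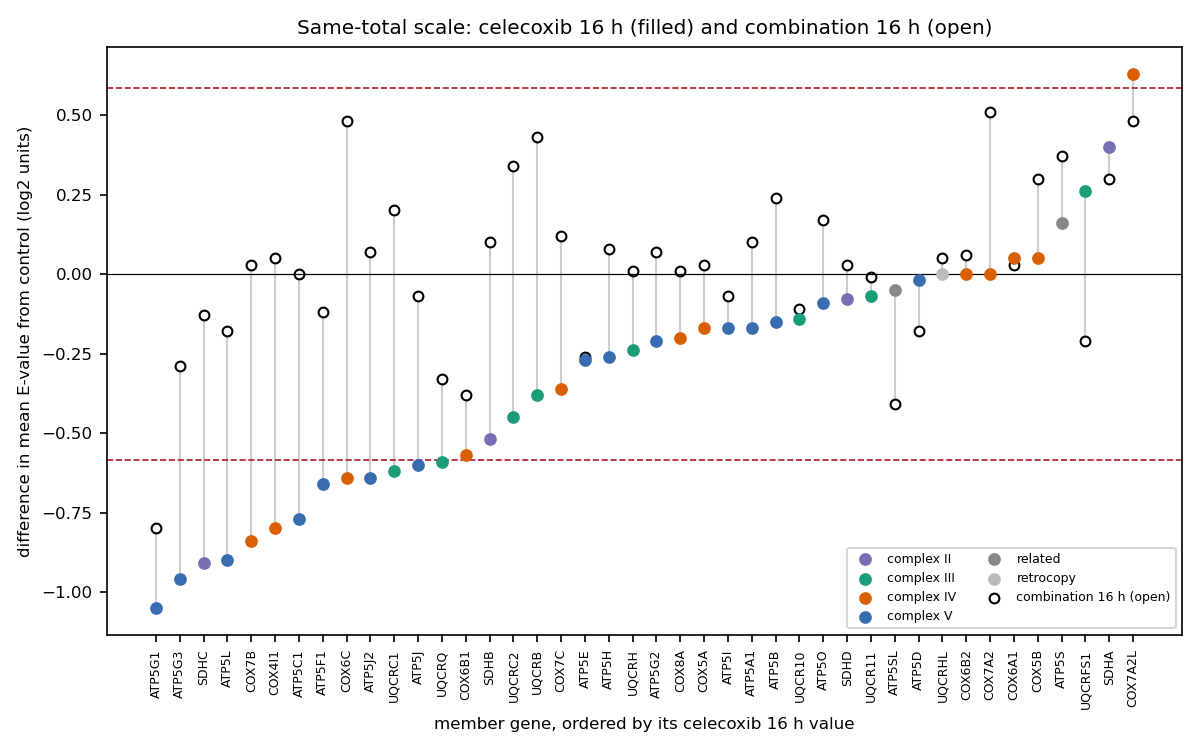
Difference in mean E-value from control on the same-total scale (vertical axis, log2 units) for the 42 genes, ordered by the value at 16 h of celecoxib (filled points, coloured by complex) with the value of the combination at 16 h (open points), and dashed lines at the limit of 0.58 in either direction. Genes of complex V fill most of the low end at the left, where 13 filled points lie under the lower line, and ATP5G1 is the only open point under it.

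The share of the transcript total does not depend on the spike-in. The 42 genes together took a median 4.60% of the total of a control cell, with a range of 3.11 to 6.91%. Under paclitaxel the median was 5.23% (16 h) and 4.75% (48 h), under celecoxib 4.88% (2 h) and 3.75% (16 h), and under both drugs 4.77%. At 16 h of celecoxib 59 of 61 cells (96.7%, exact Clopper-Pearson 95% interval 88.7 to 99.6%, for counting error only) lay below the control median. At 16 h of paclitaxel 5 of 56 cells did (8.93%, 2.96 to 19.6%). Within a condition the share had a Pearson's r between -0.20 and 0.14 with the log2 total of the cell.

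The complexes did not move alike. Complex V genes took 2.05% of the total in control, 2.18 and 2.06% with paclitaxel (16 h, 48 h), 2.02 and 1.63% with celecoxib (2 h, 16 h), and 2.04% with the combination. All 61 cells at 16 h of celecoxib were below the control median for complex V. Complex IV genes took 1.60% in control, 1.97 and 1.82% with paclitaxel, 1.96 and 1.40% with celecoxib, and 1.82% with the combination. Their share was thus above the control median in 4 of 5 treatments and below it at 16 h of celecoxib. For complex III the medians were 0.739% in control, 0.905 and 0.730% with paclitaxel, 0.755 and 0.612% with celecoxib, and 0.730% with the combination. Complex II took 0.151% in control, 0.153 and 0.146% with paclitaxel, 0.122 and 0.128% with celecoxib, and 0.165% with the combination. At 2 h of celecoxib 51 of 63 cells were below the control median for complex II, while 54 of 63 were at or above it for complex IV.

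**Figure D3:**
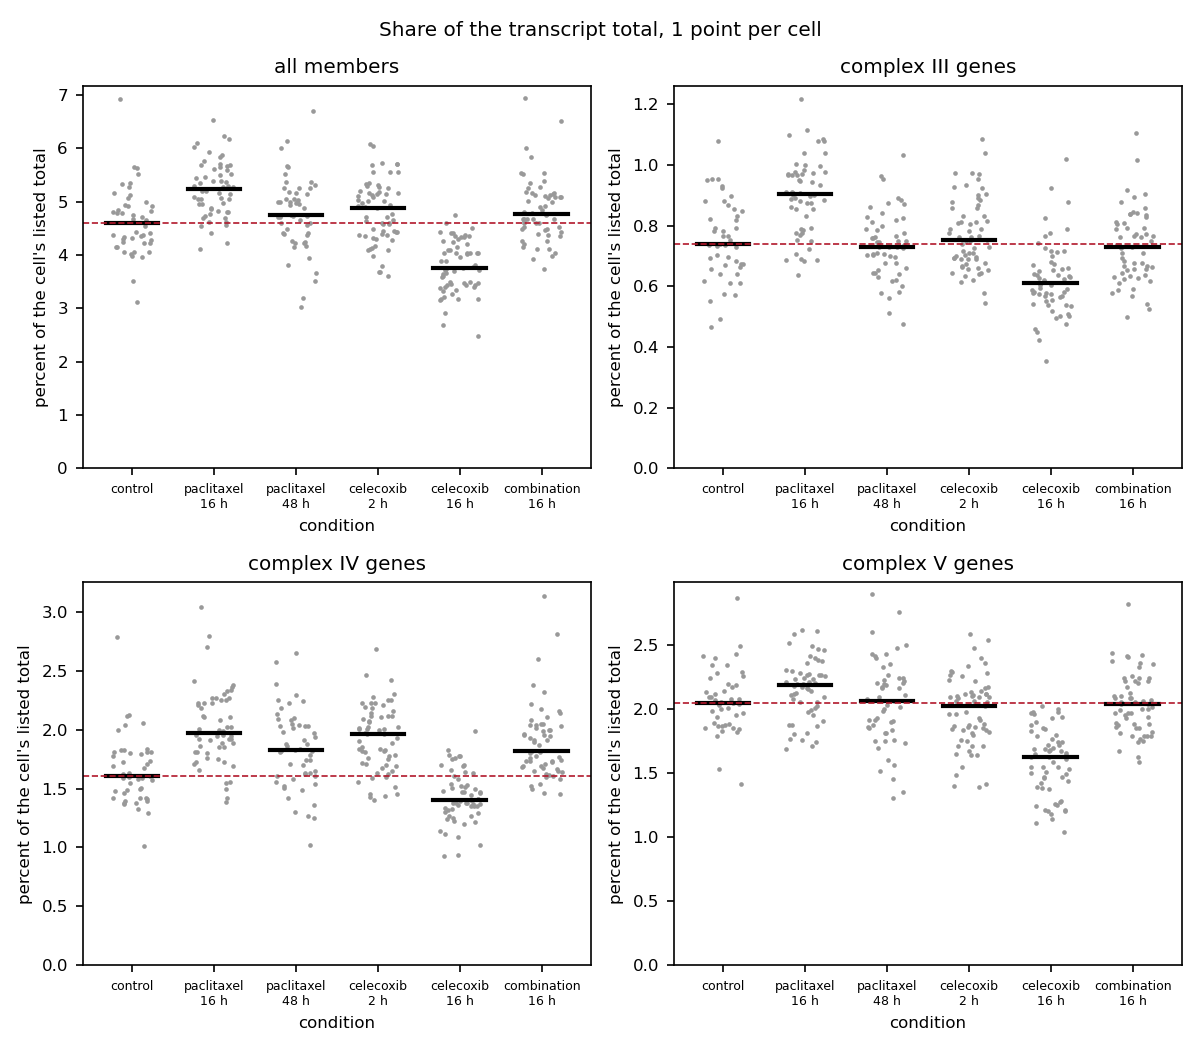
Share of the listed transcript total of each cell (vertical axis, percent, 1 point per cell) taken by all 42 genes and by the genes of complexes III, IV and V in the 6 conditions, with black bars at the median of a condition and a dashed line at the control median. The cells at 16 h of celecoxib sit lowest in every panel, and for complex V all 61 lie under the line.

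Complex II was uneven among its 4 genes. SDHA, the flavoprotein that oxidizes succinate, had a mean E-value of 4.54 ± 1.39 for control, 4.13 ± 1.15 (16 h) and 4.29 ± 1.17 (48 h) under paclitaxel, 4.07 ± 1.47 (2 h) and 3.62 ± 1.08 (16 h) under celecoxib, and 5.49 ± 1.29 under both drugs. Rescaled to the same total, SDHA was higher than in control in all 5 treatments, by 0.08 to 0.40, none past the limit. SDHB, the iron-sulfur subunit, had the highest level of the 4, with a mean E-value of 6.93 ± 0.76 without drug, 6.16 ± 1.00 (16 h) and 6.22 ± 0.81 (48 h) with paclitaxel, 6.02 ± 0.84 (2 h) and 5.04 ± 0.85 (16 h) with celecoxib, and 7.73 ± 0.81 with both. Its same-total differences ran from -0.52 at 16 h of celecoxib to 0.10 with the combination.

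SDHC and SDHD anchor the complex in the membrane and bind ubiquinone. The mean E-value of SDHC (ENSG00000143252, chr1:161314381-161363206, plus strand) was 2.75 ± 1.71 in control, 1.39 ± 1.49 (16 h) and 2.51 ± 1.67 (48 h) in paclitaxel, 1.56 ± 1.69 (2 h) and 1.23 ± 1.44 (16 h) in celecoxib, and 3.07 ± 2.26 in the combination. Values spread widely, and the median over cells was 3.39 in control but 0.54 after paclitaxel for 16 h, 0.63 (2 h) and 0.23 (16 h) under celecoxib, and 4.21 under both drugs. The share of cells with an E-value above 0 was 91.3% for control, 94.6% (16 h) and 90.6% (48 h) under paclitaxel, 84.1% (2 h) and 68.9% (16 h) under celecoxib, and 88.1% under both drugs. SDHC was thus detected in most cells of each condition, but at low levels in many cells of these 3 treatments. Its same-total mean was also below control past the limit in these 3 treatments, by 1.02, 0.94 and 0.91. On the linear scale its same-total mean was 0.563, 0.656 and 0.821 times that of control there.

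SDHD had a mean E-value of 5.58 without drug, 4.54 (16 h) and 4.57 (48 h) with paclitaxel, 4.13 (2 h) and 4.18 (16 h) with celecoxib, and 6.29 with both (SD over cells 0.91 to 1.54). At 2 h of celecoxib its same-total mean was 0.96 below control, and at 16 h 0.08 below. The lower share of complex II at 2 h of celecoxib thus came with lower SDHB, SDHC and SDHD at the same total, by 0.34, 0.94 and 0.96, and with SDHA higher by 0.08. Within complex II the part of SDHA in the summed level, per length, was 13.1% ± 6.96 (SD over cells) in control and 19.8% ± 11.6 at 16 h of celecoxib. The part of SDHC was 4.76% ± 5.02 in control and 2.45% ± 3.87 at 16 h of paclitaxel. These spreads overlap.

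**Figure D4:**
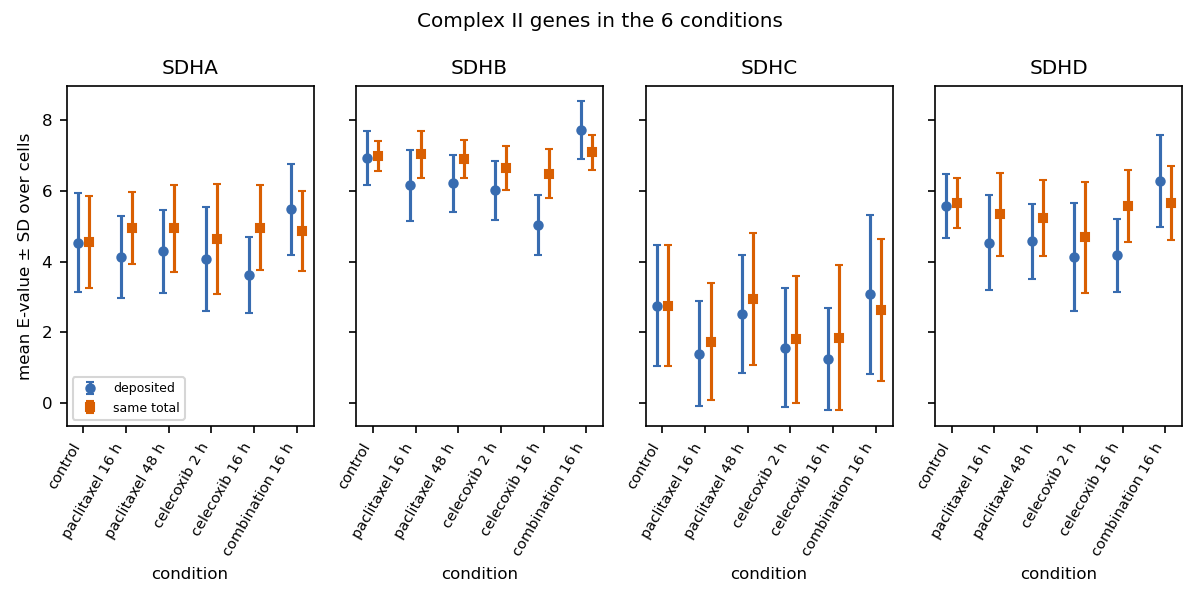
Mean E-value (vertical axis, log2 units) of SDHA, SDHB, SDHC and SDHD in the 6 conditions on the deposited scale (circles) and the same-total scale (squares), with error bars for the SD over cells. SDHC has the widest bars and lies lowest at 16 h of paclitaxel and at both celecoxib times, and SDHB is the highest of the 4 genes throughout.

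In complex III the most abundant genes were UQCRQ, UQCRH and UQCR11, small subunits that surround the catalytic core. UQCRQ had a mean E-value of 8.20 in control, 7.84 (16 h) and 7.35 (48 h) in paclitaxel, 7.58 (2 h) and 6.22 (16 h) in celecoxib, and 8.57 in the combination (SD over cells 0.65 to 0.96). On the same-total scale UQCRQ was 0.46 above control at 16 h of paclitaxel and 0.59 below at 16 h of celecoxib. UQCRH, the hinge protein that helps cytochrome c bind, had a mean of 7.88 for control, 7.37 (16 h) and 7.06 (48 h) under paclitaxel, 7.28 (2 h) and 6.25 (16 h) under celecoxib, and 8.59 under both drugs (SD over cells 0.69 to 0.91). UQCR11 had a mean of 7.22 without drug, 6.54 (16 h) and 6.84 (48 h) with paclitaxel, 6.96 (2 h) and 5.77 (16 h) with celecoxib, and 7.90 with both (SD over cells 0.57 to 0.71). For UQCRH and UQCR11 no same-total difference from control passed the limit, the sizes being at most 0.32.

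UQCRC1, a core protein, was the complex III gene whose difference from control at 16 h of paclitaxel was the lowest on both scales. Its mean E-value was 6.84 in control, 5.69 (16 h) and 6.31 (48 h) in paclitaxel, 6.01 (2 h) and 4.85 (16 h) in celecoxib, and 7.73 in the combination (SD over cells 0.82 to 0.98). Its same-total mean was lower by 0.35 at 16 h of paclitaxel and by 0.62 at 16 h of celecoxib. UQCRFS1 encodes the Rieske iron-sulfur protein, which takes electrons from ubiquinol, and had a mean of 5.24 for control, 4.42 (16 h) and 4.49 (48 h) under paclitaxel, 4.33 (2 h) and 4.14 (16 h) under celecoxib, and 5.71 under both drugs (SD over cells 0.54 to 0.82). After 16 h of celecoxib it was 0.26 above control at the same total, while the other 7 complex III genes were below control by 0.07 to 0.62.

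UQCRB, a ubiquinone-binding subunit, was 0.10 above control at 16 h of paclitaxel and 0.32 below at 48 h on the deposited scale. Its mean E-value was 5.35 without drug, 5.45 (16 h) and 5.04 (48 h) with paclitaxel, 5.41 (2 h) and 3.66 (16 h) with celecoxib, and 6.46 with both (SD over cells 0.66 to 0.88). This was the one gene of complexes II to V, besides the near-silent COX6B2, whose deposited mean was not below control at 16 h of paclitaxel. Its same-total differences were 0.90 (16 h) and 0.30 (48 h) for paclitaxel, 0.63 (2 h) and -0.38 (16 h) for celecoxib, and 0.43 for both drugs, past the limit at 16 h of paclitaxel and 2 h of celecoxib. UQCR10 and UQCRC2 had same-total differences between -0.45 and 0.34, none past the limit.

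In complex IV the most abundant genes were COX7A2, COX6A1 and COX6C, nuclear subunits around the core made in the mitochondrion. COX7A2 had a mean E-value of 8.50 in control, 8.18 (16 h) and 8.12 (48 h) in paclitaxel, 8.27 (2 h) and 7.10 (16 h) in celecoxib, and 9.71 in the combination (SD over cells 0.56 to 1.33). With the combination it was 1.21 above control on the deposited scale, the largest difference of any member in that comparison, and 0.51 above at the same total. COX6A1 had a mean of 8.60 for control, 7.73 (16 h) and 7.97 (48 h) under paclitaxel, 8.00 (2 h) and 7.25 (16 h) under celecoxib, and 9.33 under both drugs (SD over cells 0.60 to 0.87). At the same total COX6A1 was within 0.06 of control in all 5 treatments.

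COX6C had a mean E-value of 8.18 without drug, 7.96 (16 h) and 7.80 (48 h) with paclitaxel, 8.27 (2 h) and 6.16 (16 h) with celecoxib, and 9.36 with both (SD over cells 0.58 to 0.79). The same-total differences of COX6C from control were 0.59 (16 h) and 0.25 (48 h) for paclitaxel, 0.67 (2 h) and -0.64 (16 h) for celecoxib, and 0.48 for both drugs. It was above control by more than the limit at 2 h of celecoxib and 16 h of paclitaxel and below it by more than the limit at 16 h of celecoxib. The mean at the same total was 8.92 ± 0.33 at 2 h and 7.62 ± 0.62 at 16 h of celecoxib, against 8.26 ± 0.37 in control. The linear same-total mean was 1.58 times that of control at 2 h and 0.677 times at 16 h, and the latter is within the 1.5-fold limit.

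COX4I1, the subunit 4 form found in most tissues, had a mean of 8.20 in control, 7.73 (16 h) and 7.51 (48 h) in paclitaxel, 7.69 (2 h) and 6.01 (16 h) in celecoxib, and 8.94 in the combination (SD over cells 0.55 to 0.79). After 16 h of celecoxib it was 2.19 below control on the deposited scale and 0.80 below at the same total. COX7B behaved alike, with a mean of 5.52 for control, 4.90 (16 h) and 4.83 (48 h) under paclitaxel, 4.95 (2 h) and 3.39 (16 h) under celecoxib, and 6.24 under both drugs (SD over cells 0.70 to 0.92) and a same-total difference of -0.84 at 16 h of celecoxib. In the other 4 treatments both genes were within 0.35 of control at the same total.

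COX7A2L, a relative of COX7A2 that joins complexes III and IV into supercomplexes, was the one gene past the limit in opposite directions on the 2 scales against control. Its mean E-value was 4.63 without drug, 3.79 (16 h) and 4.11 (48 h) with paclitaxel, 4.21 (2 h) and 3.92 (16 h) with celecoxib, and 5.79 with both (SD over cells 0.77 to 1.16). At 16 h of celecoxib it was 0.71 below control on the deposited scale and 0.63 above at the same total. Of the summed level of COX7A2 and COX7A2L, the latter had a median part over cells of 6.67% in control, 4.30 and 5.39% with paclitaxel (16 h, 48 h), 5.77 and 8.86% with celecoxib (2 h, 16 h), and 6.16% with the combination. The mean was 6.80% ± 2.73 in control and 10.5% ± 5.89 at 16 h of celecoxib (SD over cells), and these spreads overlap.

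COX5A and COX5B, subunits that bind near the core, had a mean E-value of 7.68 in control, 6.97 (16 h) and 7.03 (48 h) in paclitaxel, 7.03 (2 h) and 6.12 (16 h) in celecoxib, and 8.41 in the combination (SD over cells 0.58 to 0.90) for COX5A. For COX5B it was 7.03 for control, 6.67 (16 h) and 6.74 (48 h) under paclitaxel, 6.79 (2 h) and 5.69 (16 h) under celecoxib, and 8.02 under both drugs (SD over cells 0.50 to 0.73). COX5B was above control at the same total in all 5 treatments, by 0.05 to 0.45, and within the limit in each. COX6B1 had a mean of 7.12 without drug, 6.25 (16 h) and 6.32 (48 h) with paclitaxel, 6.30 (2 h) and 5.18 (16 h) with celecoxib, and 7.43 with both (SD over cells 0.57 to 0.76) and was below control at the same total in all 5 treatments, by 0.07 to 0.57. Its relative COX6B2 had a mean of 0.09 in control, 0.13 (16 h) and 0.08 (48 h) in paclitaxel, 0.03 (2 h) and 0.03 (16 h) in celecoxib, and 0.21 in the combination (SD over cells 0.05 to 0.51). It was detected in 21.7 to 42.9% of the cells of a condition. COX6B2 made up a mean of at most 0.141% of the summed level of COX6B1 and COX6B2 in any condition. COX7C and COX8A had same-total differences from -0.36 to 0.30.

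Complex V has a catalytic head of alpha, beta, gamma, delta and epsilon subunits. ATP5B (beta) had a mean E-value of 9.05 for control, 8.10 (16 h) and 8.44 (48 h) under paclitaxel, 8.23 (2 h) and 7.50 (16 h) under celecoxib, and 9.99 under both drugs (SD over cells 0.68 to 0.76). ATP5D (delta) had a mean of 6.14 without drug, 5.21 (16 h) and 5.78 (48 h) with paclitaxel, 5.69 (2 h) and 4.75 (16 h) with celecoxib, and 6.65 with both (SD over cells 0.66 to 0.85). After 16 h of celecoxib these were 0.15 and 0.02 below control at the same total, and ATP5A1 (alpha) and ATP5E (epsilon) were 0.17 and 0.27 below. ATP5C1 (gamma, the rotating shaft) was 0.77 below there and 0.00 from control with the combination. The head thus had 1 of 5 genes past the limit at 16 h of celecoxib at the same total.

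The peripheral stalk holds the head in place, and its genes also differed among themselves at 16 h of celecoxib. ATP5F1 and ATP5J were 0.66 and 0.60 below control at the same total, and ATP5H and ATP5O 0.26 and 0.09 below. With the combination these 4 genes were between 0.12 below and 0.17 above control. Of the small membrane subunits, ATP5I had a mean E-value of 8.03 in control, 7.51 (16 h) and 7.39 (48 h) in paclitaxel, 7.61 (2 h) and 6.47 (16 h) in celecoxib, and 8.66 in the combination (SD over cells 0.52 to 0.76). ATP5L had a mean of 7.68 for control, 7.05 (16 h) and 7.05 (48 h) under paclitaxel, 6.96 (2 h) and 5.40 (16 h) under celecoxib, and 8.20 under both drugs (SD over cells 0.59 to 0.81). At 16 h of celecoxib ATP5I was 0.17 below control at the same total, ATP5J2 0.64 below and ATP5L 0.90 below.

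The c ring turns in the membrane as protons pass, and ATP5G1, ATP5G2 and ATP5G3 encode the same mature protein with different import sequences. ATP5G1 (ENSG00000159199, chr17:48892765-48895871, plus strand) had a mean E-value of 7.25 ± 0.87 without drug, 6.26 ± 0.92 (16 h) and 6.10 ± 1.15 (48 h) with paclitaxel, 6.11 ± 0.86 (2 h) and 4.83 ± 0.77 (16 h) with celecoxib, and 7.14 ± 0.93 with both. The same-total mean was 7.32 ± 0.50 in control, 7.13 ± 0.47 (16 h) and 6.77 ± 1.06 (48 h) in paclitaxel, 6.75 ± 0.65 (2 h) and 6.27 ± 0.68 (16 h) in celecoxib, and 6.52 ± 0.64 in the combination. ATP5G1 was below control in all 5 treatments on both scales, and at the same total its difference was the lowest of the 42 genes after celecoxib for 16 h (-1.05) and under both drugs (-0.80). The linear same-total mean was 0.505 and 0.592 times that of control there. With the combination the difference on the same scale was larger than the SD of 0.50 over control cells.

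ATP5G3, the most abundant of the 3, had a mean of 8.41 for control, 7.48 (16 h) and 7.58 (48 h) under paclitaxel, 7.42 (2 h) and 6.06 (16 h) under celecoxib, and 8.82 under both drugs (SD over cells 0.63 to 0.81). Its same-total mean was 0.96 below control at 16 h of celecoxib and 0.29 below with the combination. ATP5G2 had a mean of 7.24 without drug, 6.23 (16 h) and 6.65 (48 h) with paclitaxel, 6.88 (2 h) and 5.64 (16 h) with celecoxib, and 8.00 with both (SD over cells 0.47 to 0.96), and its same-total difference was -0.21 after celecoxib for 16 h and 0.07 under both drugs. Per length, ATP5G2 made up 24.0% ± 8.92 (SD over cells) of the c-ring sum in control, 23.8% ± 7.33 and 28.2% ± 9.00 with paclitaxel (16 h, 48 h), 32.7% ± 7.82 and 34.4% ± 9.15 with celecoxib (2 h, 16 h), and 30.3% ± 7.26 with the combination. ATP5G1 made up 23.7% ± 5.10 in control and 17.2% ± 5.62 with the combination, and ATP5G3 52.3% ± 8.31 in control and 45.6% ± 8.98 at 16 h of celecoxib. The 2 celecoxib times and the combination had the highest part of ATP5G2, and the ranges over cells overlap with control.

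**Figure D5:**
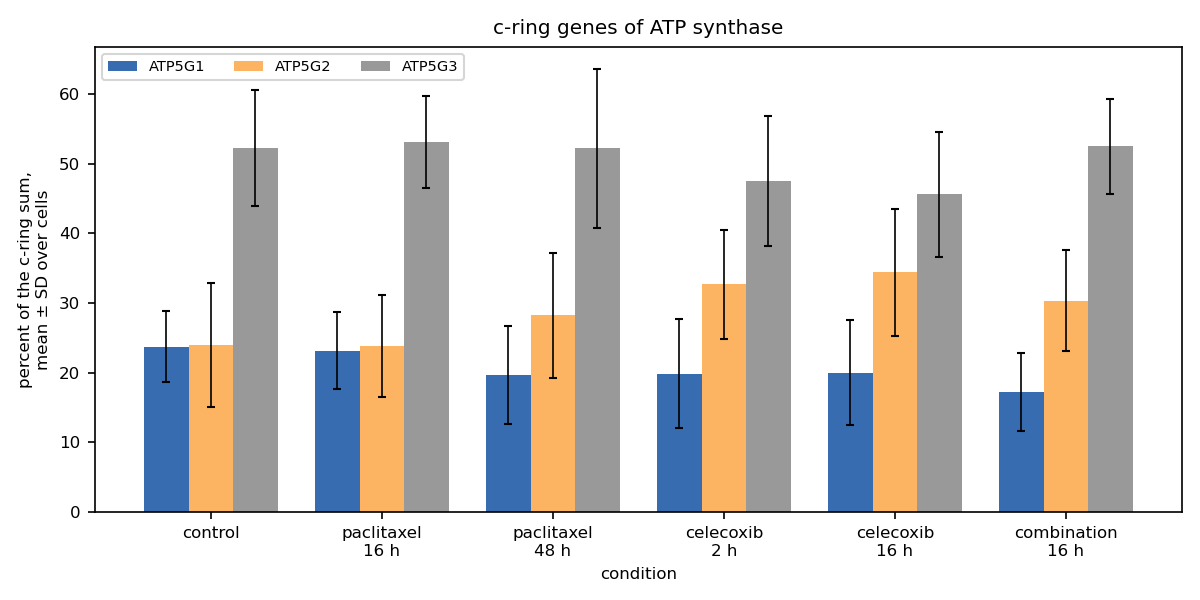
Part of ATP5G1, ATP5G2 and ATP5G3 in their summed level per length (vertical axis, percent, mean over cells with SD bars) in the 6 conditions. ATP5G3 is the largest in each, and ATP5G2 is at 24.0% in control and at 34.4% after 16 h of celecoxib.

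Of the related factors, ATP5SL had a mean E-value of 3.49 in control, 2.04 (16 h) and 2.38 (48 h) in paclitaxel, 2.29 (2 h) and 2.39 (16 h) in celecoxib, and 3.61 in the combination (SD over cells 1.28 to 1.80). It was below control past the limit at the same total at 16 h (-1.01) and 48 h (-0.72) of paclitaxel and 2 h of celecoxib (-0.84), and 0.05 below at 16 h of celecoxib. ATP5S had a mean of 1.53 for control, 1.69 (16 h) and 1.68 (48 h) under paclitaxel, 1.73 (2 h) and 1.04 (16 h) under celecoxib, and 2.36 under both drugs (SD over cells 1.00 to 1.77) and was above control at the same total in all 5 treatments, by 0.16 to 0.56. UQCRHL was near 0, with a mean of 0.15 without drug, 0.17 (16 h) and 0.08 (48 h) with paclitaxel, 0.12 (2 h) and 0.06 (16 h) with celecoxib, and 0.27 with both (SD over cells 0.10 to 0.30).

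Set against the single drugs at the same 16 h, the combination was higher in nearly every gene on the deposited scale. Against paclitaxel 40 of 42 genes were up and none down past the limit (62.5% of all genes up), with a median difference of 1.36 against 0.80 over all genes. Against celecoxib 40 of 42 were up (66% of all genes), with medians of 2.34 and 0.88, and the largest was 3.20 for COX6C. Of the 546 genes with a mean E-value above 5, 545 and 546 were up in these comparisons. The 2 members within the limit in both were COX6B2 and UQCRHL.

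At the same total the 2 comparisons differed. Against paclitaxel 2 genes were up, SDHC and ATP5SL, and 2 down, UQCRQ and ATP5G1 (13% of all genes up and 2.11% down). UQCRQ and ATP5G1 were 0.79 and 0.61 lower at the same total and 0.72 and 0.89 higher on the deposited scale. Against celecoxib 12 genes were up and none down (6.94% up and 5.85% down of all genes), with a median of 0.26, led by COX6C at 1.12, COX7B at 0.87 and COX4I1 at 0.85. Among the genes with a mean E-value above 5, 32.3% of the members and 13.0% of all were up in this comparison. UQCRFS1, at -0.46, was the lowest.

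Across the cells of a condition the complexes were compared by their mean E-values. On the deposited scale Pearson's r between complexes III and V was 0.97 over the 46 control cells and 0.84 to 0.97 over the 6 conditions. These values share the total of the cell. At the same total r was 0.82 in control, 0.39 and 0.78 with paclitaxel (16 h, 48 h), 0.49 and 0.36 with celecoxib (2 h, 16 h), and 0.56 with the combination. Spearman's rho was 0.80, 0.34, 0.56, 0.53, 0.34 and 0.65 in the same order. Complex II had an r between -0.16 and 0.37 with complex V at the same total. Cells of a condition were read as 1 run, and these values are a description.

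Single genes were also compared with the mean of the other members at the same total. The median r over the members was 0.45 in control and 0.21 to 0.32 in the treatments. UQCR10 had the highest median over the 6 conditions, at 0.54, followed by ATP5J2 at 0.46, while SDHA (-0.02), COX6B2 (-0.01) and COX7A2L (0.05) had the lowest.

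The 37 nuclear subunits of complex I listed were followed in the same way. On the deposited scale 20 and 18 were down past the limit with paclitaxel (16 h, 48 h) and 11 and 37 with celecoxib (2 h, 16 h), while 25 were up with the combination. As shares these are 54.1, 48.6, 29.7 and 100% down and 67.6% up, against 37.3, 26.6, 25.7 and 43.9% of all genes down and 30.4% up. Of the 546 genes with a mean E-value above 5, 73.4, 67.0, 52.9 and 97.4% were down and 53.7% up. Neither these subunits nor the lists below were matched to other genes by level. At the same total 6 of the 37 subunits were down and none up at 16 h of celecoxib, or 16.2% down. Of all genes 10.1% were down, and of the 546 genes 24.0%. The subunits had a median of -0.23, the value of the 42 members. With the combination 5 were up (13.5%, against 7.87% of all genes) and none down, with a median of 0.06. The 10 further subunits and carriers, among them CYC1 and NDUFA4, had none past the limit at the same total in any single-drug condition and 2 up with the combination, the electron transfer genes ETFA and ETFDH.

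Of 35 listed assembly factors of complexes II to V, 3 were down and 1 up at the same total at 16 h of celecoxib (8.57 and 2.86%, against 10.1 and 8.87% of all genes), with a median of -0.01. The gene up was SURF1, an assembly factor of complex IV, with a difference of 1.17. BCS1L, which inserts the Rieske protein into complex III, was below control at the same total by 1.67 and 1.16 with paclitaxel (16 h, 48 h), by 1.41 and 0.30 with celecoxib (2 h, 16 h), and by 1.07 with the combination. Its product's client UQCRFS1 was within 0.35 of control in each. Of 14 tricarboxylic acid cycle enzymes 4 were down (28.6%, against 10.1% of all genes) and none up at the same total at 16 h of celecoxib. Of the 546 genes with a mean E-value above 5, 24.0% were down there, with a median of -0.25. The enzymes had a median of -0.38, with citrate synthase (CS) the lowest at -0.88. At 16 h of paclitaxel 3 were down (21.4%, against 13.2%) and at 2 h of celecoxib 2 (14.3%, against 10.9%), with none up. At 48 h of paclitaxel and with the combination none was down and 1 was up (7.14%, against 4.69 and 7.87%).

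Of 15 listed regulators of mitochondrial genes, none was up at the same total in any treatment against control. Of all genes 1.89 to 8.87% were, and at such shares few or none of the 15 regulators would be up. With paclitaxel 5 (16 h) and 3 (48 h) were down, or 33.3 and 20.0% against 13.2 and 8.08% of all genes. With celecoxib 3 (2 h) and 1 (16 h) were down, or 20.0 and 6.67% against 10.9 and 10.1%, and with the combination 2 were, or 13.3% against 7.64%. TFAM, which drives transcription of mitochondrial DNA, was below control by 0.78 and 0.61 with paclitaxel (16 h, 48 h), 0.19 and 0.70 with celecoxib (2 h, 16 h), and 0.94 with the combination. On the deposited scale 1 of the 15 was up with the combination (6.67%, against 30.4% of all genes), and TFAM was 0.38 below control. Counts on this scale depend on level, as 53.7% of the 546 genes with a mean E-value above 5 were up there. The levels of the 15 were not compared with those of other genes. The 84 cytosolic ribosomal proteins, abundant genes outside the mitochondrion, had a median same-total difference of -0.27 with 11 down (13.1%) after celecoxib for 16 h, and of -0.07 under both drugs. The 77 mitochondrial ribosomal proteins had medians of -0.11 and -0.32 in these conditions. There 12 and 15 were down (15.6 and 19.5%, against 10.1 and 7.64% of all genes). At 2 h of celecoxib 23 were down (29.9%, against 10.9%), with a median of -0.34. With paclitaxel 13 (16 h) and 14 (48 h) were down, or 16.9 and 18.2% against 13.2 and 8.08%.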

How the data were processed

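Single A2780 cells of 6 conditions, each read from the library names as 1 C1 run, were analysed. According to the study's methods and processing notes, adapters were removed with Trim Galore, and RSEM 1.3.0 with the aligner Bowtie2 gave TPM against an index of GENCODE version 28 transcripts (hg38) joined with 3 spike-in molecules. Cells with poorly detected housekeeping genes were removed by the authors (34 of 372), as were genes not detected in more than 30% of cells in any condition. The values the authors deposited, for 9664 genes in 338 cells, are log2 values, log2(N/10 + 1), and 0 columns of cells were left unused. Their predicted cell states were not used. The pseudocount of 10 normalized TPM shrinks differences of weakly expressed genes, and the spike-in scaling enters every deposited value.

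The linear value N was recovered from E. Means, differences, shares and correlations over cells were computed with Python 3.11.15, numpy 2.4.6, pandas 2.3.3 and scipy 1.17.1, and drawn with matplotlib 3.10.9. Doublets could not be called without counts. Depth was described by genes detected. In data resampled from the control cells, sets of genes drawn from 8740 were raised or lowered 4-fold. Of these 82.0% of the raised and 64.0% of the lowered genes passed the limit as deposited. On the same-total scale 80.0 and 69.0% did, and all of those with a mean E-value over 3 did on both scales. Smaller changes, nearer the limit, were also run and their recovery is not given here. Given gene by gene were the SDH genes, the 3 most abundant genes of complexes III, IV and V, the 3 highest and 3 lowest differences of each comparison and scale among genes detected in 30% of both groups, paralogous subunits, and genes past the limit in opposite directions. The members and gene lists were chosen with earlier results of these data known. The alternatives were linear means, a pseudocount of 1, medians, a 50% detection limit, other totals, index blocks alone, and leaving out wells noted as empty or debris. Coordinates are from GENCODE version 44 on hg38, and all 42 identifiers matched.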

Additional observations from a re-analysis of the deposited data

Results flagged for a closer look

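COX6C stood on opposite sides of control at the 2 celecoxib times. At the same total its mean E-value was 0.67 above control after 2 h and -0.64 relative to control after 16 h, both past the limit of 0.58. On the deposited scale it was 0.09 above control at 2 h and 2.02 below at 16 h. The difference between the times was not tested, since each time was read as 1 C1 run. The 2 times also carried different blocks of library indices, shared in part with other conditions. With linear means at the same total the ratio to control was 1.58 at 2 h and 0.677 at 16 h, and the latter is within the 1.5-fold limit.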

How the results depend on the processing

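Of 307 alternative values, 269 stayed within the spread or ratio allowed and 38 moved. A change of sign was looked for only in median differences past the limit, and none was found. With index block 4 alone 15 genes, rather than 23, were down at 48 h of paclitaxel. With the log2 ratio of linear means 6 genes, rather than 13, were down at the same total at 16 h of celecoxib. Neither count was repeated over all genes. The other counts that moved were same-total counts of 5 or fewer. Without the 50 most abundant other genes in the total, which raises every share by construction, the 42 genes took 5.54% in control, 6.25 and 5.84% with paclitaxel, 5.85 and 4.40% with celecoxib, and 5.73% with the combination. Complex V took 2.46%, 2.63 and 2.50%, 2.41 and 1.90%, and 2.42% in the same order, so celecoxib at 16 h stayed lowest. The agreement of complexes III and V on the deposited scale was 0.97 in control, 0.96 and 0.94 with paclitaxel, 0.92 and 0.84 with celecoxib, and 0.95 with the combination. The cause of these moves was otherwise not tested. No paired analysis was possible because each condition is 1 sample. With each condition read as 1 run, the run cannot be told apart from the treatment. Control cells carried index block 4 only, and read depth is unknown, so low values of SDHC, COX6B2 and UQCRHL are the least certain.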
